A study of Rattus norvegicus with 28 samples.

Results

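The 9 genes described here encode secreted growth factors that glia can release onto vessels, neurons and dividing progenitors: Vegfa, Vegfb, Vegfc, Bdnf, Gdnf, Pdgfa, Pdgfb, Fgf2 and Hbegf. They were taken by exact gene symbol from the gene count tables, and 9 of 9 were found, among the 15009 genes shared by all tables. RNA-seq libraries came from primary microglia and primary astrocytes of postnatal day 1 Wistar rat cortex, with 28 libraries in all. Microglia had been shaken off mixed flask cultures and sorted with CD11b/c beads. Cells received the recombinant envelope protein of the human endogenous retrovirus HERV-W (ENV, 1 µg/ml) or its buffer, or bacterial lipopolysaccharide (LPS, 100 ng/ml) or its vehicle H2O. Microglia had 3 libraries and astrocytes 4 libraries in each of the 4 conditions, and no group carried a genetic modification. The sources used here do not give how long the cells were stimulated, or whether libraries of one group came from separate litters, so the p-values measure the spread between libraries, which may be technical.

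Vascular endothelial growth factors signal through the receptor tyrosine kinases Flt1, Kdr and Flt4 with neuropilins as co-receptors, and Vegfa is the family member best known for driving vessel growth and permeability. Platelet-derived growth factor chains pair into dimers that act on Pdgfra, the receptor of oligodendrocyte progenitors, and Pdgfrb, the receptor of pericytes. Fgf2 and Hbegf are mitogens of neural progenitors and astrocytes, read by Fgf receptors and by Egfr and Erbb4, whereas Bdnf and Gdnf support neurons through Ntrk2 and through Ret with its Gfra co-receptors.

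Each library held 23742228 to 42724111 counts, so that 3 counts in a library correspond to 0.0702 to 0.126 CPM (counts per 1e+06 counts of the library), and a level below this cannot be told from a count of 0. The summed level of 12 microglial markers was 5907.1 to 11848.4 CPM in the microglial libraries and 70.3 to 807.1 CPM in the astrocyte libraries. The astrocyte markers summed to 2434.7 to 11315.9 CPM in astrocytes and 24.5 to 291 CPM in microglia. A few libraries stood apart within their group: H2O microglia replicate 3 held 283.8 CPM of astrocyte markers against 62.7 and 75.9 in the others, LPS microglia replicate 3 held the least microglial marker signal, and LPS astrocytes replicates 1 and 2 held 2434.7 and 2533.4 CPM of astrocyte markers against 7137.8 and 8030.6. Fibroblast and mural cell markers reached 1414.4 to 10723.2 CPM in the astrocyte cultures. In these bulk samples, fewer cells of a type and less RNA per cell cannot be told apart. Changes below are log2 fold changes ± SE from edgeR's unpaired quasi-likelihood test on TMM-scaled libraries, and differ somewhat from ratios of CPM. Genes with an adjusted p under 0.05 over the whole table are referred to as called.

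At rest, the growth factors divided between the cell types. Vegfb was higher in microglia: its level was 77.0, 74.2 and 77.6 CPM in the 3 buffer microglia libraries and 42.6, 49.3, 46.8 and 47.0 CPM in the 4 buffer astrocyte libraries, with no overlap. Its difference was 1.09 ± 0.10 (adjusted p = 4.28e-05) under buffer and 0.92 ± 0.11 (adjusted p = 2.82e-04) under H2O. Pdgfb was not called, at 1.17 ± 0.48 (adjusted p = 0.0596) under buffer and 0.94 ± 0.52 (adjusted p = 0.142) under H2O; without H2O microglia replicate 3 the latter was 1.28 (adjusted p = 0.0462).

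The other members that were tested lay lower in microglia. Hbegf, a membrane-anchored ligand of the Egf receptor, was at 80.4, 98.6, 100.3 and 96.5 CPM in buffer astrocytes against 3.55, 2.84 and 3.64 CPM in buffer microglia, a difference of −4.44 ± 0.17 (adjusted p = 6.68e-07). Fgf2 was at 21.2, 21.8, 22.7 and 26.9 CPM in buffer astrocytes and had 3 counts in each buffer microglia library, a difference of −7.34 ± 0.21. Vegfa (−2.33 ± 0.31, adjusted p = 2.79e-04) and Pdgfa (−2.33 ± 0.18, adjusted p = 1.38e-05) differed the same way. Vegfc had 6 to 8 counts per buffer microglia library, a difference of −5.81 ± 0.31. Bdnf gave 1 count over the buffer microglia libraries and 100 counts over the buffer astrocyte libraries, a ratio of 71.7 with a counting interval of 12.6 to 2860.9. Fgf2, Vegfc and Bdnf passed the filter on low counts only through the astrocyte libraries, where they were high. They had to differ, so their values describe the libraries and are not used as tests. Under each vehicle 7 of 8 tested members were called, these 3 included. Of all genes 70% were called under buffer and 70.9% under H2O, so that share is near its background. The cell types were also separate sets of libraries, and cell type and library set cannot be told apart. Gdnf did not pass the filter, with 0 to 2 counts per microglial group and 7 to 20 counts per astrocyte group.

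**Figure D1:**
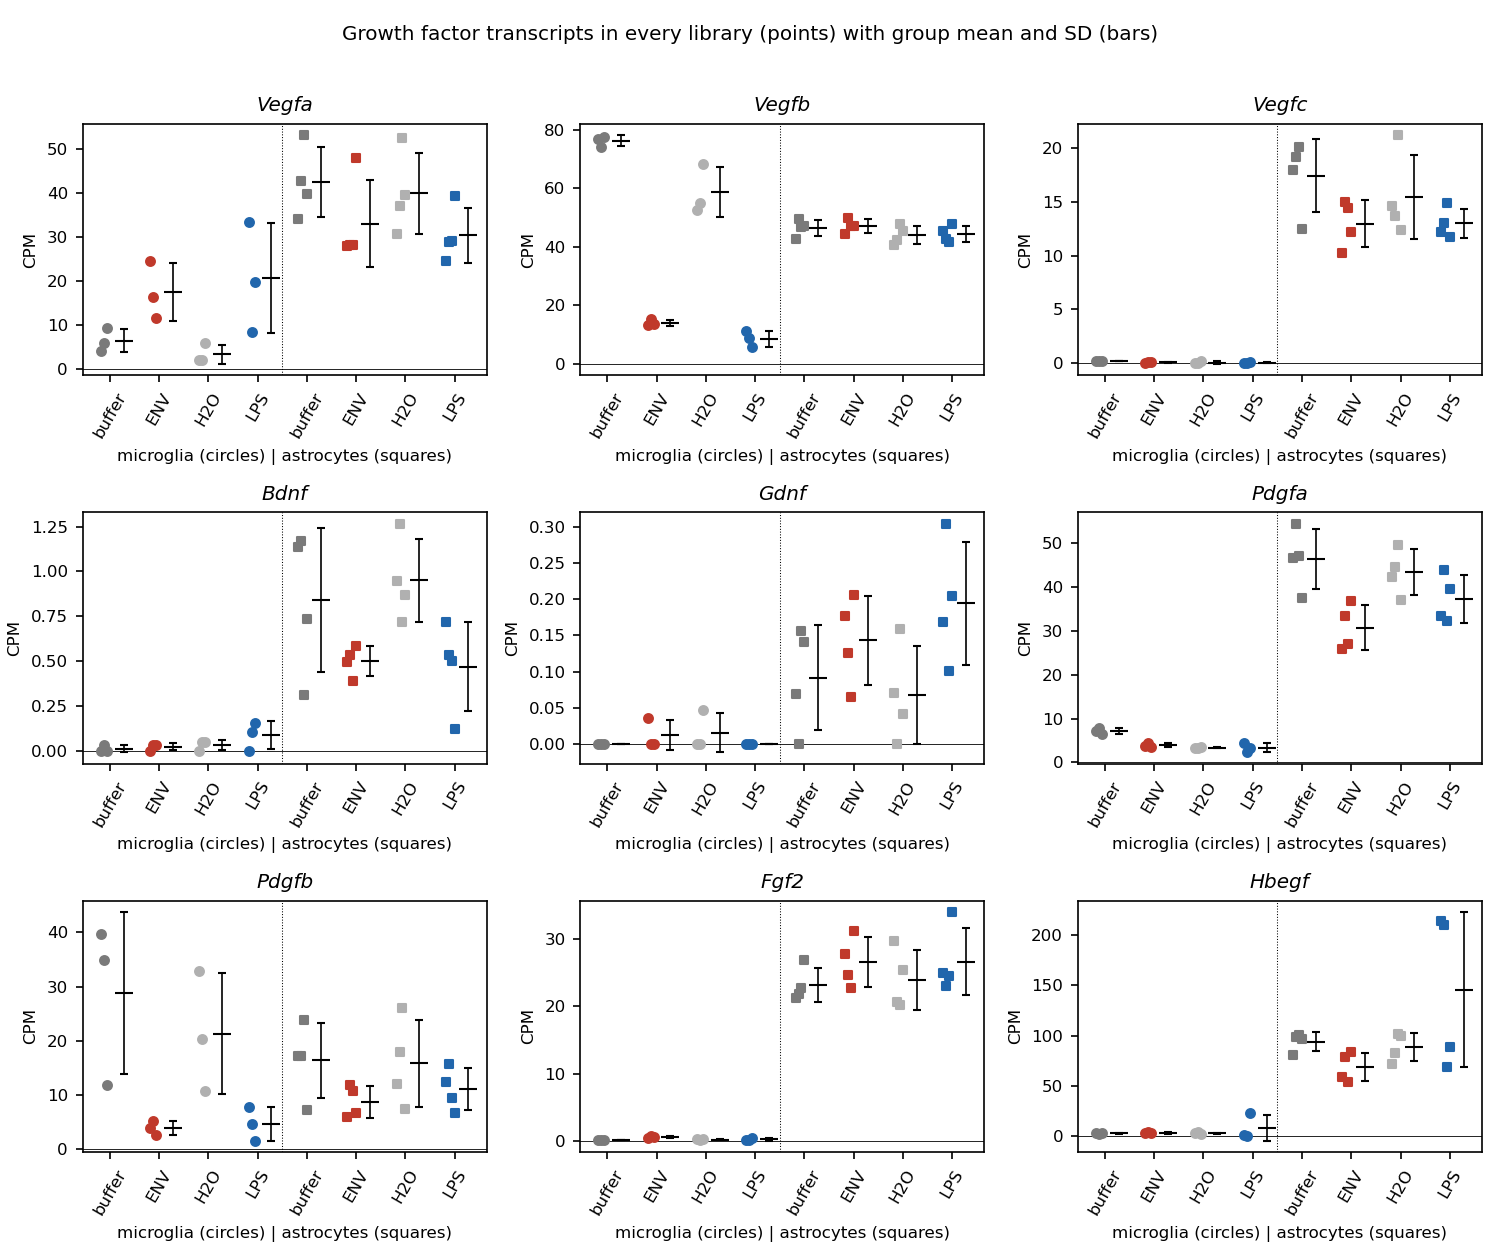
Level of each growth factor in every library, in CPM, with 1 panel per gene. Circles are microglia and squares are astrocytes, each point is 1 library, and bars give the mean and SD. Vegfb is highest in resting microglia and low after ENV or LPS, whereas Hbegf, Fgf2, Vegfc and Pdgfa lie higher in every astrocyte group than in the microglial groups.

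In microglia, ENV raised Vegfa and lowered Vegfb. Vegfa was at 4.07, 6.02 and 9.30 CPM in the buffer libraries and at 24.5, 16.4 and 11.5 CPM in the ENV libraries. The ENV libraries were all above the buffer libraries. The change was 1.64 ± 0.40 (95% CI 0.69 to 2.59, adjusted p = 0.0214), and leaving out any one of buffer or ENV replicates 1 or 2 ended the call (adjusted p = 0.0533 to 0.073), as did a joint fit over all microglial groups (adjusted p = 0.0641). Within same-numbered pairs, ENV Vegfa was 6.02, 2.72 and 1.24 times its buffer level. Vegfb fell from 77.0, 74.2 and 77.6 CPM to 13.1, 15.2 and 13.7 CPM. The ENV libraries lay close together and far below every buffer library, a change of −2.25 ± 0.11 (95% CI −2.50 to −1.99, adjusted p = 1.20e-04). In this comparison 5 of 6 tested members were called, 2 higher and 3 lower. One of the 2 higher, Fgf2, passed the filter on low counts only through the ENV libraries, so its call carries no weight of its own; over all genes 30.9% were called, 16.2% higher and 14.7% lower. The median change of the 6 tested members was −0.13, and that of all genes tested was −0.03.

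LPS gave the same pair of directions in microglia. Vegfa went from 2.14, 2.08 and 5.92 CPM under H2O to 33.5, 8.49 and 19.9 CPM under LPS. The groups did not overlap, but the LPS libraries spread over a wide range. Its change was 2.95 ± 0.66 (95% CI 1.35 to 4.55, adjusted p = 0.0212), and the call was lost without H2O replicate 1 (adjusted p = 0.0869), H2O replicate 2 (adjusted p = 0.0828) or LPS replicate 1 (adjusted p = 0.0537). Vegfb fell from 52.7, 54.9 and 68.4 CPM to 11.2, 8.77 and 5.67 CPM, with every LPS library well below every H2O library. This was a change of −2.46 ± 0.28 (95% CI −3.14 to −1.78, adjusted p = 0.0034). Of the 5 members tested, 2 were called, 1 higher and 1 lower; over all genes 29.8% were called, 16% higher and 13.8% lower. The members' median change was 0.32, against −0.02 for all genes tested. Vegfb stayed called under every alternative run for either stimulus, from −2.30 to −2.21 for ENV and from −2.74 to −2.13 for LPS. Vegfc, the ligand best known for lymphatic vessels, had 8 to 20 counts per microglial group and did not pass the filter; without a filter its change was −1.15 with ENV (adjusted p = 0.174) and 0.02 with LPS (adjusted p = 0.995).

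The start-proximal sequences are shown for Vegfa, which rose in ENV microglia, and for Vegfb and Pdgfb, which fell. These sequences come from RefSeq (GRCr8), a build other than the mRatBN7.2 of the counts. Each is the 250 bases before an annotated start, 5′ to 3′ on the gene's strand. Capitals mark matches on either strand to an NF-kB motif, AP-1 (TGANTCA), the HIF core (ACGTG or GCGTG), CRE (TGACGTCA) or the GC box (GGGCGG). Adjoining capitals are neighbouring or overlapping matches.
Vegfa, chr9:22452604-22452853, plus strand: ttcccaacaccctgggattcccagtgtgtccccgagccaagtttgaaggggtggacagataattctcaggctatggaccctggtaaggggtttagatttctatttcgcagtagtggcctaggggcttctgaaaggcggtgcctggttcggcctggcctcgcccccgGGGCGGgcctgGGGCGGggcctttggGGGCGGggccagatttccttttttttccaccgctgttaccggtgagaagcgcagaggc
Vegfb, chr1:213607153-213607402, minus strand: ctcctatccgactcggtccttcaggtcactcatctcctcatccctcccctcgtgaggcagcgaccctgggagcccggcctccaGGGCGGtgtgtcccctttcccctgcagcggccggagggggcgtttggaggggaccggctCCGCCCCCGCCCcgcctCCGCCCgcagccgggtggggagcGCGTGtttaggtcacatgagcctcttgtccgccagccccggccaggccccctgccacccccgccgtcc
Pdgfb, chr7:113438344-113438593, minus strand: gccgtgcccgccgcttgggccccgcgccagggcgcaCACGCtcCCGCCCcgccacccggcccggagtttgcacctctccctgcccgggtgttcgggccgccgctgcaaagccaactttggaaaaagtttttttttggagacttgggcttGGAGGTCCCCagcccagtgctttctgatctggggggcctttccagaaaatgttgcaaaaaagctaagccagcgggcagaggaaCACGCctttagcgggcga
The Vegfa window shown held 3 GC boxes, and the window of the other annotated Vegfa start held 0 matches to any of the motifs. Of the others, the Vegfb window held 4 GC boxes and 1 HIF core, and the Pdgfb window 1 NF-kB match, 2 HIF cores and 1 GC box. The Pdgfb NF-kB match begins 101 bases before the start. The 9 genes had 15 annotated starts, of which 2 held an NF-kB match, 1 an AP-1 match, 9 a HIF core, 0 a CRE and 6 a GC box. These are counts of starts and not of genes. Bdnf had the most starts, several of them with a HIF core, and 2 of its windows overlapped and shared 1 HIF core. Over 33469 promoters of the same length, 6.3% held an NF-kB match, 6.3% an AP-1 match, 36.7% a HIF core, 1.6% a CRE and 30.5% a GC box. A match is a stretch of letters and not a measured binding site.

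Both platelet-derived growth factor chains fell in ENV-treated microglia. Pdgfb went from 39.8, 34.9 and 11.8 CPM under buffer to 3.86, 5.19 and 2.54 CPM under ENV. Every ENV library lay below every buffer library, and replicate 3 was the lowest in both groups. The change was −2.69 ± 0.48 (95% CI −3.83 to −1.55, adjusted p = 0.00699) and stayed called under every alternative. Pdgfa went from 7.13, 7.95 and 6.40 CPM to 3.75, 4.504 and 3.60 CPM without overlap, a smaller change of −0.65 ± 0.18 (95% CI −1.08 to −0.23, adjusted p = 0.0331). The Pdgfa call was lost in the joint fit (adjusted p = 0.0951) and without any one library other than buffer replicate 3 (adjusted p = 0.0656 to 0.116). The summed markers of other glia moved with it. Oligodendrocyte lineage markers went from 250.5 to 269.9 CPM in buffer libraries to 65.4 to 135.0 CPM in ENV libraries. Astrocyte markers went from 235.6 to 291.0 CPM to 114.6 to 233.3 CPM. Most of the astrocyte sum was Slc1a3, whose mean went from 206.8 to 86.52 CPM, and Aldoc, Gja1 and S100b also fell. Mean Gfap instead rose from 26.96 to 59.05 CPM, and Aqp4, Aldh1l1, Slc1a2 and Sox9 rose from low levels. The part of these glia in the Pdgfa result was not tested.

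Neither chain was called in LPS microglia by the unpaired fit. Pdgfb was at 32.9, 20.3 and 10.7 CPM in H2O microglia and at 7.70, 4.65 and 1.497 CPM in LPS microglia. All LPS libraries were below all H2O libraries, and replicate 3 was again the lowest in each group. The change of −1.90 ± 0.68 (95% CI −3.54 to −0.26) was not called (adjusted p = 0.0799); with the replicate number as a block it was −2.03 (adjusted p = 0.00682), in the joint fit the adjusted p was 0.0368, and with DESeq2 it was 0.0123. Pairs of same-numbered libraries had LPS levels 0.234, 0.228 and 0.14 times those under H2O. Pdgfa was at 3.38, 3.20 and 3.56 CPM under H2O and 4.51, 2.32 and 3.34 CPM under LPS, with overlapping groups and a change of 0.32 ± 0.33 (95% CI −0.47 to 1.11, adjusted p = 0.484). Of a list of endothelial markers, 6 of 7 were listed in the tables and 5 to 6 had counts. They summed to 58.3 to 77.5 CPM in buffer microglia and 125.3 to 209.4 CPM in ENV microglia. The sum was 79.0 to 103.9 CPM in H2O microglia and 138 to 241 CPM in LPS microglia. With ENV mean Pecam1 went from 19.0 to 76.4 CPM, Cdh5 from 16.2 to 56.1 CPM and Esam from 26.0 to 37.3 CPM. Tie1 went from 3.94 to 1.76 CPM and Vwf from 0.942 to 0.659 CPM, and Emcn was at 0.0117 and 0.0110 CPM. With LPS mean Pecam1, Cdh5 and Esam also rose and Tie1 and Vwf also fell, while Emcn had no counts. Fibroblast and mural cell markers summed to 8.52 to 15.2 CPM under buffer and 1.06 to 5.56 CPM under ENV, and to 7.24 to 13.6 CPM under H2O and 4.33 to 4.96 CPM under LPS. The part of these cells in the Pdgfb result was not tested.

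Fgf2 counts were higher with ENV, from a level at the limit of detection. It had 3 counts in each buffer microglia library (0.113, 0.105 and 0.101 CPM) and 11, 22 and 20 counts (0.397, 0.718 and 0.660 CPM) in the ENV libraries, through which alone it passed the filter on low counts. The groups did not overlap, and the fitted change was 2.62 ± 0.42 (95% CI 1.63 to 3.61). A gene that enters the test only through the group where it is high had to differ, so this value describes the 6 libraries and is not used as a test. The ENV mean of 0.592 CPM remained far below the 22.7 to 31.2 CPM of ENV astrocytes. With LPS, Fgf2 gave 4, 5 and 17 counts against 9, 3 and 12 under H2O, overlapping groups that did not pass the filter. Without a filter and in the joint fit its change was 0.52 (adjusted p = 0.713 and 0.565).

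Hbegf was not called in microglia for either stimulus. It was at 3.55, 2.84 and 3.64 CPM under buffer and 3.79, 4.83 and 2.94 CPM under ENV, overlapping groups with a change of 0.40 ± 0.26 (95% CI −0.22 to 1.02, adjusted p = 0.281). Under H2O it was at 2.95, 3.92 and 2.65 CPM and under LPS at 1.42, 0.888 and 23.2 CPM, so that 1 LPS library was above and the other 2 were below every H2O library. The change of 1.72 ± 1.21 (95% CI −1.20 to 4.65, adjusted p = 0.316) rested on LPS replicate 3: without it the change was −1.14, and with replicate 3 left out of both groups −1.28 (adjusted p = 0.0526). That replicate also held less microglial marker signal (5907.1 CPM against 10533.5 and 9147.0 in the other LPS libraries); its part in the result was not tested.

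The neurotrophic members, Bdnf and Gdnf, were near or below detection in microglia. Bdnf summed to 1 count under buffer, 2 under ENV, 4 under H2O and 10 under LPS, and Gdnf to 0, 1, 2 and 0 counts in the same order. Neither passed the filter, and without one the adjusted p was 0.685 and 0.468 for Bdnf and 0.481 and 0.447 for Gdnf with ENV and LPS.

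**Figure D2:**
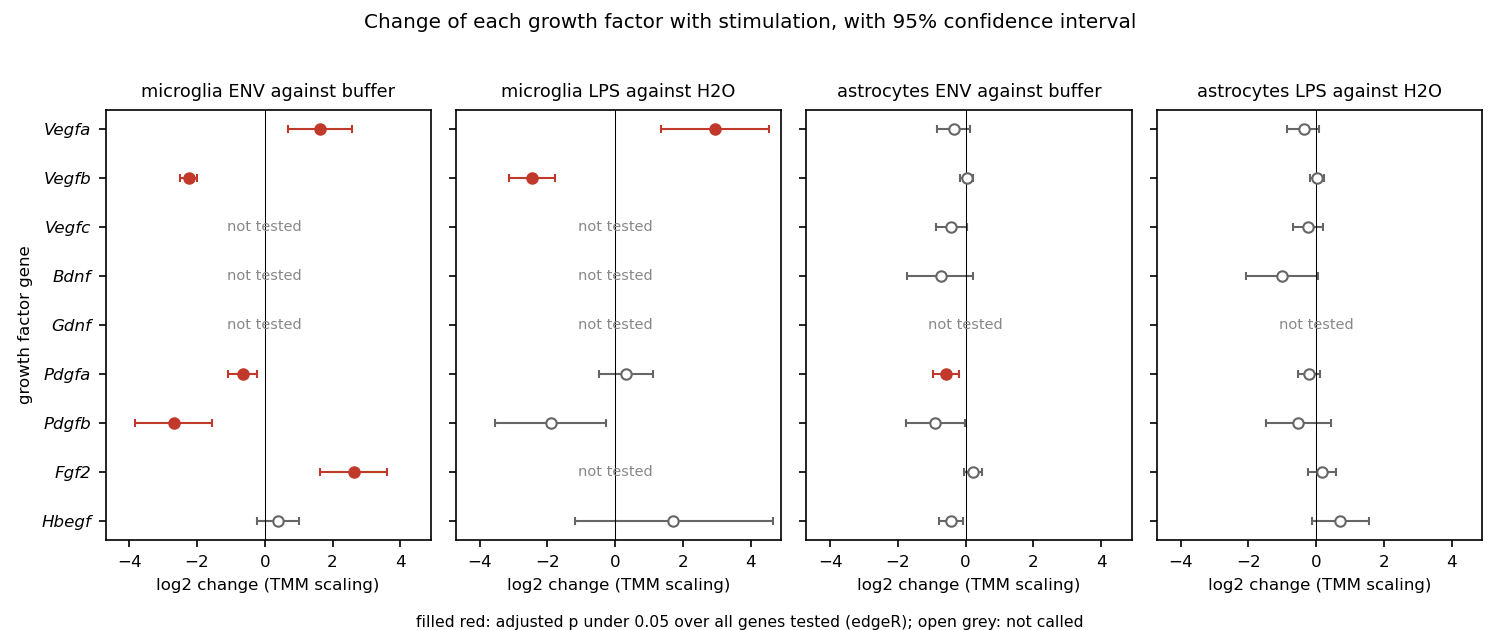
Log2 change of each growth factor with its 95% confidence interval in the 4 comparisons of a stimulus with its vehicle. Filled red points were called at an adjusted p under 0.05 and open grey points were not. Vegfb falls by 2.25 and 2.46 on the log2 scale in microglia, whereas its astrocyte values of 0.03 and 0.03 lie at 0. Fgf2 in ENV microglia entered the test only through the ENV libraries.

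In astrocytes ENV lowered 1 of the 8 tested members, Pdgfa, in the unpaired fit, where 17.9% of all genes were called, 9.52% higher and 8.35% lower. With the replicate block 3 members were called lower, and more of all genes were called, as given under the alternatives. Pdgfa was at 46.5, 54.5, 47.1 and 37.6 CPM under buffer and 25.8, 33.4, 27.04 and 36.8 CPM under ENV. The ENV libraries all lay below the buffer libraries, but ENV replicate 4 came close to buffer replicate 4. The change was −0.59 ± 0.17 (95% CI −0.97 to −0.21, adjusted p = 0.0429). The call was lost without any one of the buffer or ENV replicates 1, 2 or 3 (adjusted p = 0.0562 to 0.107), and without both replicates 4, an alternative added after the values were seen, the change was −0.79 (adjusted p = 0.0165).

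Pdgfb and Hbegf were lower on average in ENV astrocytes without being called in the unpaired fit. Pdgfb was at 17.2, 17.2, 23.9 and 7.19 CPM under buffer and 5.85, 11.8, 10.7 and 6.60 CPM under ENV, overlapping because buffer replicate 4 was low. Its change was −0.90 ± 0.38 (95% CI −1.77 to −0.02, adjusted p = 0.146); with the replicate block it was −0.84 (adjusted p = 0.0468), and without buffer replicate 4 it was −1.15 (adjusted p = 0.0296). The summed fibroblast and mural cell markers moved with it. They were at 7864.0, 10723.2, 10341.2 and 2520.9 CPM under buffer and 1873.0, 3243.1, 3013.7 and 1414.4 CPM under ENV. Within that list mean Tagln went from 3561.4 to 1118.0 CPM and Acta2 from 2133.9 to 212.9 CPM, and Col1a1, Col1a2, Col3a1 and Rgs5 also fell. Dcn (0.653 to 1.72 CPM) and Lum (0.76 to 1.69 CPM) rose from low levels. The part of these cells in the Pdgfb result was not tested. Hbegf was at 80.4, 98.6, 100.3 and 96.5 CPM under buffer and 59.4, 78.3, 54.0 and 83.4 CPM under ENV, with an overlap of a single library on each side. Its change was −0.44 ± 0.15 (95% CI −0.79 to −0.09, adjusted p = 0.0833), −0.45 (adjusted p = 0.031) with the replicate block and −0.46 (adjusted p = 0.0335) with DESeq2.

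The vascular endothelial growth factors were not called in ENV astrocytes. Vegfa was at 34.1, 42.8, 53.1 and 39.8 CPM under buffer and 28.03, 28.2, 28.1 and 47.9 CPM under ENV. Of the ENV libraries 3 lay together below every buffer library and replicate 4 among them, so the change was −0.35 ± 0.21 (95% CI −0.84 to 0.14, adjusted p = 0.296), and −0.58 (adjusted p = 0.0416) without ENV replicate 4. Vegfb was level at 44.4, 49.9, 47.0 and 47.1 CPM under ENV, a change of 0.03 ± 0.09 (95% CI −0.17 to 0.23). Vegfc was at 17.95, 19.1, 20.1 and 12.5 CPM under buffer and 10.2, 15.0, 14.4 and 12.2 CPM under ENV, a change of −0.42 ± 0.20 (adjusted p = 0.182). Without buffer replicate 4, the lowest library of that group, the Vegfc change was −0.56 (adjusted p = 0.049). Fgf2 (0.21 ± 0.12, adjusted p = 0.258) and Bdnf (−0.74 ± 0.43, adjusted p = 0.269) were not called either. Bdnf rested on 100 counts over the buffer libraries and 60 over the ENV libraries. The members' median change was −0.43, against 0.02 for all genes tested.

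LPS called 0 of 8 members in astrocytes with edgeR, with or without the replicate block, and 0 with DESeq2. In the unpaired fit 0 were at an unadjusted p under 0.05, and 5.34% of all genes were called, 2.64% higher and 2.69% lower. Hbegf had the widest spread. Its level was 71.4, 83.0, 101.5 and 99.2 CPM under H2O and 213.8, 209.6, 69.0 and 89.1 CPM under LPS. LPS replicates 1 and 2 were far above every H2O library, while LPS replicates 3 and 4 lay within or below their range. The change was 0.72 ± 0.36 (95% CI −0.11 to 1.55, adjusted p = 0.305). In same-numbered pairs the LPS level was 3, 2.53, 0.679 and 0.898 times the H2O level. As an alternative chosen after these values were seen, replicates 1 and 2 alone gave 1.43 (adjusted p = 3.94e-04) and replicates 3 and 4 alone −0.30 (adjusted p = 0.307); since the libraries were separated by their Hbegf level, the first is no independent test. The same 2 LPS libraries held the lower astrocyte marker sums given above. Over all genes tested, replicates 1 and 2 also deviated together, apart from 3 and 4, under both H2O and LPS. The part of either in the result was not tested.

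The other members spread less under LPS. Vegfa was at 30.8, 37.0, 52.5 and 39.5 CPM under H2O and 24.5, 28.8, 29.1 and 39.3 CPM under LPS, overlapping, with a change of −0.37 ± 0.21 (95% CI −0.85 to 0.10, adjusted p = 0.361). Pdgfa (−0.20 ± 0.15, 95% CI −0.53 to 0.13), Pdgfb (−0.52 ± 0.41, 95% CI −1.47 to 0.44), Vegfb (0.03 ± 0.09, 95% CI −0.19 to 0.24), Vegfc (−0.23 ± 0.20, 95% CI −0.68 to 0.22) and Fgf2 (0.17 ± 0.18, 95% CI −0.23 to 0.58) had intervals spanning 0. Bdnf gave 100 counts over the H2O and 49 over the LPS libraries, and its log2 change had a 95% CI of −2.08 to 0.07 (adjusted p = 0.271). The members' median change was −0.22, against 0.03 for all genes tested.

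**Figure D3:**
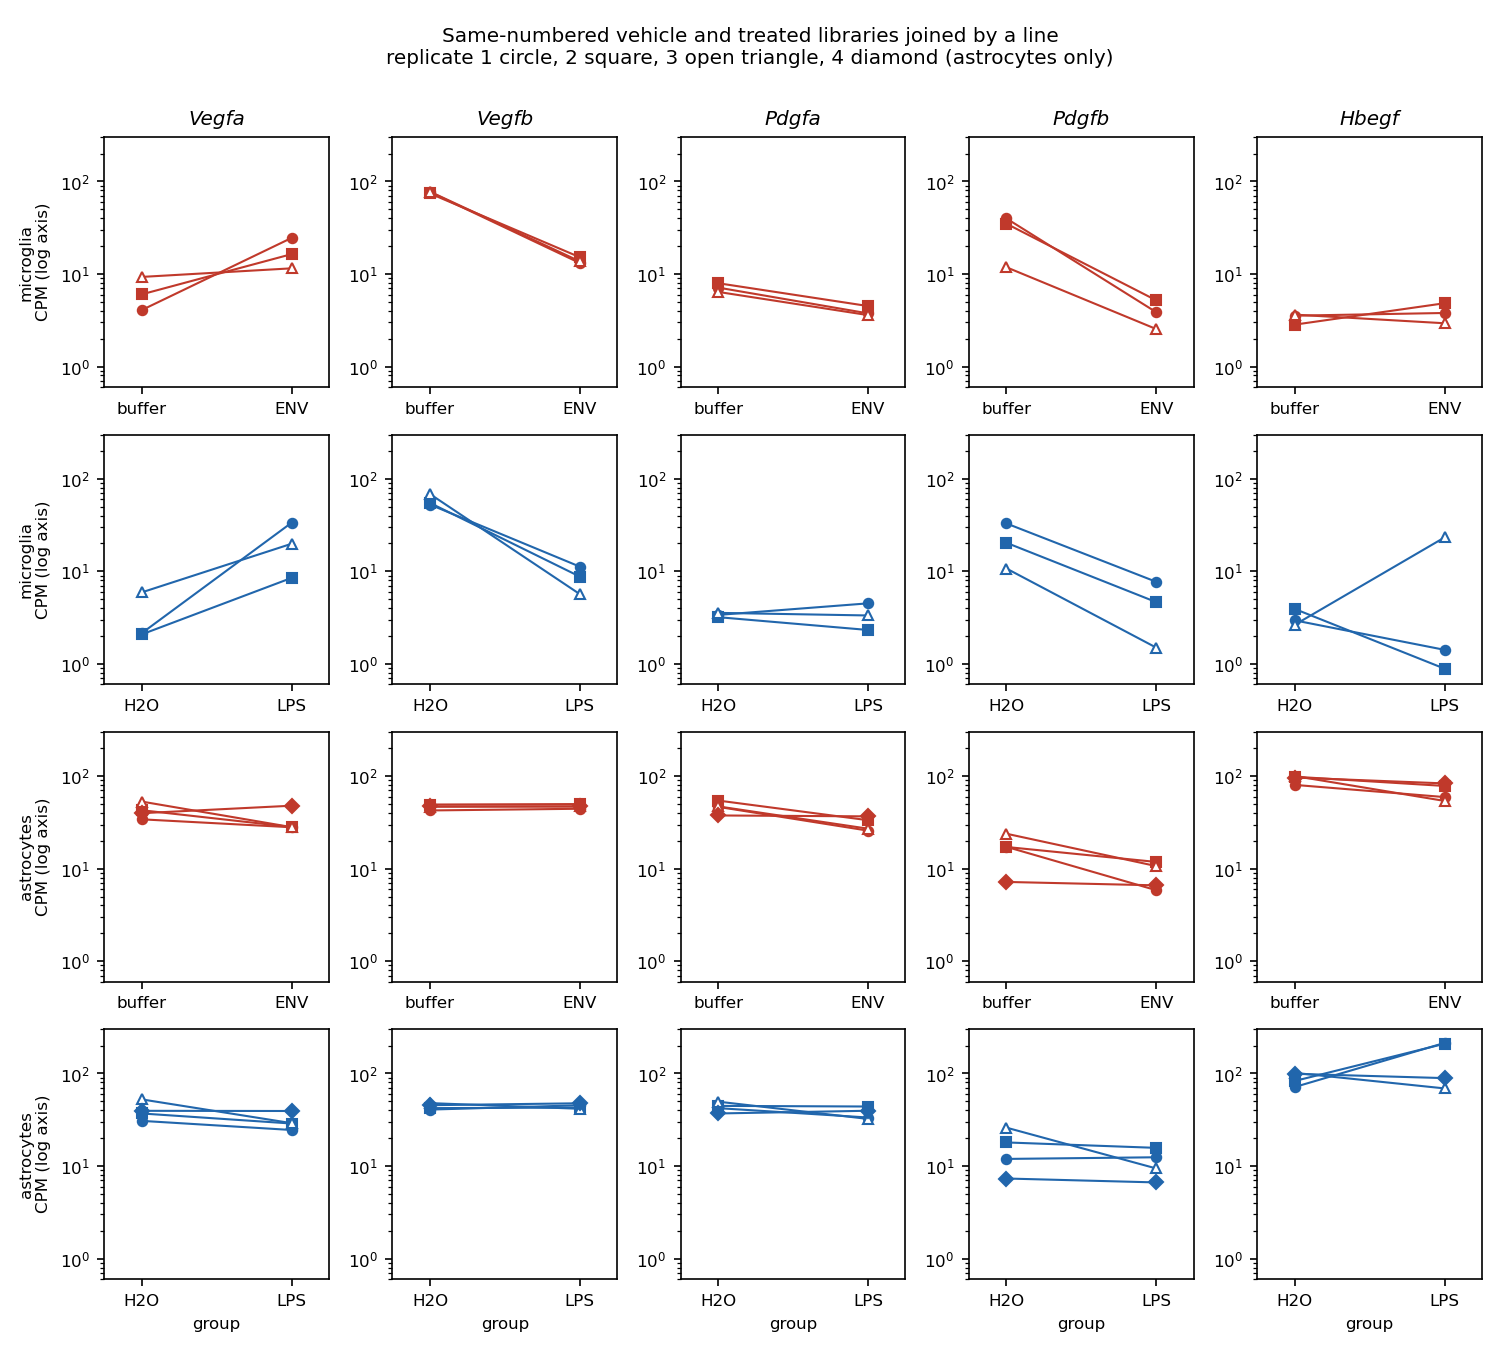
CPM of Vegfa, Vegfb, Pdgfa, Pdgfb and Hbegf in same-numbered vehicle and treated libraries, joined by lines, for the 4 comparisons on a log axis. The Hbegf lines of LPS astrocytes split, 2 rising 3 and 2.53 times and 2 going to 0.679 and 0.898 times, while all Vegfb lines of microglia fall.

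The response itself differed between the cell types for 3 members under ENV. The microglial minus the astrocyte change was 1.97 ± 0.46 for Vegfa (95% CI 0.97 to 2.98, adjusted p = 0.0135), −2.29 ± 0.13 for Vegfb (95% CI −2.56 to −2.01, adjusted p = 2.87e-06) and 2.42 ± 0.31 for Fgf2 (95% CI 1.74 to 3.10, adjusted p = 3.87e-04), where 14.9% of all genes were called. These 3 calls held under every alternative run. In this fit Fgf2 passed the filter through the astrocyte libraries, in both conditions. Its microglial change rested on 3 counts in each buffer library and 11 to 22 counts in the ENV libraries. For Pdgfa the difference was −0.07 ± 0.24 (95% CI −0.59 to 0.44, adjusted p = 0.883). For Pdgfb it was −1.79 (adjusted p = 0.0827), and −1.76 (adjusted p = 0.0128) with the replicate block. For Hbegf it was 0.83 (adjusted p = 0.0573), and 0.89 (adjusted p = 0.0203) with DESeq2.

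Under LPS the microglial and astrocyte responses differed for Vegfa, by 3.29 ± 0.65 (95% CI 1.87 to 4.71, adjusted p = 0.00759), and for Vegfb, by −2.52 ± 0.26 (95% CI −3.08 to −1.96, adjusted p = 2.17e-04), where 12.5% of all genes were called. Pdgfb differed by −1.43 (adjusted p = 0.279), and by −1.64 (adjusted p = 0.0204) with the replicate block. The Hbegf difference of 1.04 had an interval from −1.60 to 3.68 (adjusted p = 0.64).

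The ENV and LPS responses, each against its own vehicle, were not separated for any member. In microglia 0 members and 0% of 13270 genes were called with edgeR, against 2 members and 937 genes at an unadjusted p under 0.05 and 67 genes with DESeq2. The Vegfb difference, ENV minus LPS, was 0.24 ± 0.28 (95% CI −0.38 to 0.87), that of Vegfa −1.29 ± 0.80 (95% CI −3.06 to 0.48) and that of Pdgfa −0.95 ± 0.36 (95% CI −1.75 to −0.15, adjusted p = 0.693). The intervals for Vegfa and Pdgfb (−2.70 to 1.23) are wide and leave large differences possible. In astrocytes 0 members and 0% of 15496 genes were called, with 1 member and 76 genes at an unadjusted p under 0.05; the member was Hbegf, at −1.17 ± 0.42 (95% CI −2.07 to −0.28, adjusted p = 1).

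The vehicles were compared as a control. Between buffer and H2O microglia 0% of 12900 genes were called with edgeR, but 1946 were at an unadjusted p under 0.05, DESeq2 called 679, and 1650 were called without H2O replicate 3. Of 5 members tested 0 were called with edgeR. The libraries of Vegfb and Pdgfa did not overlap between the vehicles. How many of all genes did so was not counted, so this only describes the 2 genes. Vegfb was at 74.2 to 77.6 CPM under buffer and 52.7 to 68.4 CPM under H2O (0.26 ± 0.11, adjusted p = 0.338). Pdgfa was at 6.40 to 7.95 CPM under buffer and 3.20 to 3.56 CPM under H2O. Its difference was 0.96 ± 0.19 (adjusted p = 0.25, but 0.0336 without H2O replicate 3 and 8.76e-04 with DESeq2). The ENV level of Pdgfa was 3.60 to 4.504 CPM. Oligodendrocyte lineage markers differed the same way without overlap, at 250.5 to 269.9 CPM under buffer and 16.0 to 139.8 CPM under H2O. Astrocyte markers were at 235.6 to 291.0 and 62.7 to 283.8 CPM, most of it Slc1a3 (mean 206.8 and 134.5 CPM). The part of these cells in the Pdgfa difference was not tested. Between buffer and H2O astrocytes 0% of 14876 genes were called, with 125 at an unadjusted p under 0.05.

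Across all 8 groups, mean Vegfb ordered as buffer microglia (76.3 ± 1.85 CPM, SD), H2O microglia (58.7 ± 8.55 CPM), the 4 astrocyte groups (44.1 to 47.1 CPM), ENV microglia (14.0 ± 1.05 CPM) and LPS microglia (8.56 ± 2.79 CPM). The neighbours in this order were separated by non-overlapping libraries except among the astrocyte groups. Vegfa ordered from buffer astrocytes (42.5 ± 7.97 CPM) through the other astrocyte groups to LPS microglia (20.6 ± 12.5 CPM) and ENV microglia (17.5 ± 6.56 CPM), all overlapping their neighbours, and then, with a gap, buffer microglia (6.46 ± 2.64 CPM) and H2O microglia (3.38 ± 2.20 CPM). Pdgfb ran from buffer microglia (28.8 ± 14.9 CPM) to ENV microglia (3.86 ± 1.32 CPM), and every neighbouring pair of groups overlapped. Hbegf ran from LPS astrocytes (145.4 ± 77.0 CPM) through buffer (94.0 ± 9.17 CPM), H2O (88.8 CPM) and ENV astrocytes (68.8 ± 14.3 CPM) to the 4 microglial groups (3.17 to 8.52 CPM). Pdgfa ran from buffer astrocytes (46.4 ± 6.91 CPM) to ENV astrocytes (30.7 ± 5.22 CPM), then buffer microglia (7.16 ± 0.775 CPM) and the other 3 microglial groups (3.38 to 3.95 CPM). Vegfc was at 12.9 to 17.4 CPM in the astrocyte groups and at most 0.235 CPM in the microglial groups.

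Receptors, processing enzymes and feedback genes of these pathways were taken from lists drawn up by family and role. Their counts are from the unpaired fit. They are to be read against the 30.9% of all genes called in ENV microglia, 29.8% in LPS microglia, 17.9% in ENV astrocytes and 5.34% in LPS astrocytes. The replicate block called more of these genes in astrocytes, as given below. A few named genes passed the filter on low counts through 1 group alone, so that they had to differ, and are described by their counts: Nrtn through the buffer microglia, Ereg through the LPS microglia, and Mmp3 through the treated libraries of all 4 comparisons. Pdgfrl, Pdgfrb and Gfra2 in microglia and Ereg in ENV astrocytes passed in every library of 1 group and in some of the other. In the VEGF list, 0 of 3 tested genes rose and 1 fell in ENV microglia and 0 of 4 rose and 1 fell in LPS microglia; the same gene fell each time, Nrp1, a co-receptor of VEGF and semaphorins. Nrp1 went from a mean of 170.0 to 20.01 CPM with ENV (−2.87 ± 0.53, adjusted p = 0.0077) and from 210.9 to 14.9 CPM with LPS (−3.50 ± 0.29, adjusted p = 0.00139). Its microglial minus its astrocyte change was −2.58 ± 0.52 for ENV (adjusted p = 0.00609) and −3.13 ± 0.37 for LPS (adjusted p = 4.40e-04). In astrocytes the 1 gene called, of 6 tested with ENV and 5 with LPS, was Pgf, placental growth factor and a ligand of Flt1, from 0.722 to 6.67 CPM with ENV (3.21 ± 0.62, adjusted p = 0.0103) and by 2.79 ± 0.54 with LPS (adjusted p = 0.0259, lost without single libraries). Pgf rose in the cultures where Vegfa, Vegfb and Vegfc were not called.

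Among neurotrophins and their receptors, 1 of 4 tested genes fell in microglia under each stimulus: Sort1, the sorting receptor sortilin, by −1.41 ± 0.15 with ENV (382.4 to 125.7 CPM, adjusted p = 9.90e-04) and −2.47 ± 0.29 with LPS (406.2 to 59.3 CPM, adjusted p = 0.00362). In ENV astrocytes 1 of 7 rose and 4 fell, the latter including Ntf3, neurotrophin-3, by −1.59 ± 0.25 (adjusted p = 0.0046) and its receptor Ntrk3 by −1.54 (adjusted p = 0.00988). With LPS 0 of 7 rose and 2 fell, Ntf3 by −2.24 ± 0.35 (adjusted p = 0.0119) and Sorcs2 by −1.33 (adjusted p = 0.027). Of the GDNF family and its receptors, Gfra1, the co-receptor of Gdnf, fell in astrocytes with ENV (37.3 to 11.4 CPM, −1.70 ± 0.23, adjusted p = 0.00253) and with LPS (−1.36 ± 0.21, adjusted p = 0.0115), the 1 called gene of 6 and of 5 tested. In ENV microglia 2 of 4 GDNF family genes were called lower, Nrtn, which passed through the buffer libraries alone, and Gfra2 by −2.22 (adjusted p = 0.0484), and in LPS microglia 0 of 4 were called.

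In the PDGF list 2 of 4 tested genes rose and 1 fell in ENV microglia. Pdgfrl, a secreted receptor-like protein, rose from 0.197 to 3.51 CPM (4.31 ± 0.76, adjusted p = 0.00658) and with LPS from 0.214 to 11.7 CPM (6.05 ± 0.76, adjusted p = 0.00447), the 1 of 4 genes called there. The other riser with ENV was Pdgfrb, from 0.309 to 0.708 CPM (1.39 ± 0.41, adjusted p = 0.0418), which stayed called under 1 of 11 alternatives. Pdgfra went from 93.4 to 36.5 CPM with ENV (−1.16 ± 0.35, adjusted p = 0.0438, and 0.632 in the joint fit). Markers of the oligodendrocyte lineage, in which Pdgfra is a defining receptor, moved with it as given beside Pdgfa; their part in the result was not tested. In ENV astrocytes Pdgfc fell from 176.7 to 98.6 CPM (−0.82, adjusted p = 0.0182), the 1 of 5 called, and with LPS 0 of 5 were called.

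The FGF and EGF lists gave between 0 and 2 calls per comparison. Of the FGF list 0 of 4 tested genes were called in ENV microglia, 0 of 6 in ENV astrocytes and 0 of 6 in LPS astrocytes; in LPS microglia 1 of 3 fell, Fgfrl1, by −1.08 (adjusted p = 0.0406). Of the EGF list, Tgfa fell in ENV microglia (33.7 to 12.3 CPM, −1.25, adjusted p = 0.025, and 0.38 in the joint fit), the 1 of 6 called. Ereg, epiregulin, went in LPS microglia from 0 counts over the H2O libraries to 368 counts over the LPS libraries. This was at least 130.9-fold higher with a floor of 3 counts over the group. The LPS mean was 3.21 CPM with an SD of 4.68 CPM, so that 1 library held most of these counts. Erbb3 rose by 0.93 (adjusted p = 0.0142). In all 2 of 5 were called, of which Ereg entered only through the LPS libraries. In ENV astrocytes Ereg rose by 3.20 (adjusted p = 0.0119) and Nrg1 fell by 0.51 on the log2 scale (adjusted p = 0.0419), 2 of 10 called, and with LPS 0 of 10 were called.

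Proteases that release or activate growth factors included genes with large changes, although in microglia the share of the list that was called lay below that of all genes. In ENV microglia 2 of 12 processing genes were called higher and 1 lower: Mmp9, a matrix gelatinase, went from 13.4 to 512.1 CPM (5.44 ± 0.59, adjusted p = 0.00101), Mmp3 from 1 to 348 counts, and Plau, the urokinase activator of plasminogen, from 641.2 to 43.9 CPM (−3.67 ± 0.24, adjusted p = 2.09e-04). In LPS microglia 2 of 11 were called higher, Mmp3, from 6 to 514 counts, and Rhbdf2, a partner of the sheddase Adam17, by 1.23 (adjusted p = 0.0361), and 1 lower, Plau (456.7 to 25.7 CPM, −3.84 ± 0.55, adjusted p = 0.00627). In ENV astrocytes 6 of 13 were called higher and 1 lower; Mmp3 went from 7 to 1967 counts and Mmp9 from 1.05 to 205.7 CPM (7.62 ± 0.78, adjusted p = 8.92e-04). In LPS astrocytes 3 of 13 were called higher and 1 lower, with Mmp9 at 6.40 ± 0.46 (adjusted p = 0.00253), Mmp3 from 3 to 840 counts and Plat at 0.54 (adjusted p = 0.027).

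Angptl4, a secreted angiopoietin-like protein that inhibits lipoprotein lipase, rose in all 4 comparisons. It went from 5.21 to 29.7 CPM in ENV microglia (2.73 ± 0.42, adjusted p = 0.00383), from 8.07 to 73.7 CPM in LPS microglia (3.51 ± 0.28, adjusted p = 0.00136), from 20.2 to 280.2 CPM in ENV astrocytes (3.81 ± 0.34, adjusted p = 5.64e-04) and by 3.66 ± 0.81 in LPS astrocytes (adjusted p = 0.0413, lost without single libraries). It was the 1 called angiogenic modulator of 7 in LPS microglia, of 9 in ENV astrocytes and of 9 in LPS astrocytes. In ENV microglia 3 of 7 rose and 1 fell, among them Met, the receptor of hepatocyte growth factor (2.07 ± 0.29, adjusted p = 0.00255), and Hgf, its ligand (−2.38, adjusted p = 0.0199). Of the feedback genes that receptor tyrosine kinases induce through ERK, 2 of 8 fell in microglia under each stimulus: Spry2 by −1.70 ± 0.20 with ENV (42.1 to 11.3 CPM, adjusted p = 0.00133) and −2.41 with LPS (adjusted p = 0.0204), and Spred1 by −0.58 (adjusted p = 0.0138) and −0.56 (adjusted p = 0.0295). In ENV astrocytes 1 of 8 fell, Spry1 by −1.63 (adjusted p = 0.011), and with LPS 0 of 8 were called.

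Not every pathway call held when a library was left out or the fit was changed. In ENV microglia the calls of Gfra2, Nrtn, Pdgfra, Pdgfrb, Tgfa, Hgf, Met and Spred1 were lost under at least 1 alternative, and in LPS microglia those of Fgfrl1, Ereg, Erbb3, Rhbdf2, Spry2 and Spred1. In ENV astrocytes those of Nrg1 and Pdgfc were lost, and in LPS astrocytes those of Pgf, Ntf3, Sorcs2, Plat and Angptl4. The adjusted p of these genes reached 0.0536 (Spred1) to 0.632 (Pdgfra). The calls of Nrp1, Sort1 and Plau in microglia and of Gfra1 and Mmp9 in astrocytes held under every alternative run. With the replicate block, which moved the astrocyte counts by over 1.5 times, 36 pathway genes in place of 19 were called in ENV astrocytes and 23 in place of 9 in LPS astrocytes. In LPS astrocytes the block gave 0 higher and 2 lower of 6 in the FGF list, 2 higher and 0 lower of 10 in the EGF list, 0 higher and 4 lower of 7 among neurotrophins and receptors, and 5 higher and 3 lower of 13 in the processing list.

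**Figure D4:**
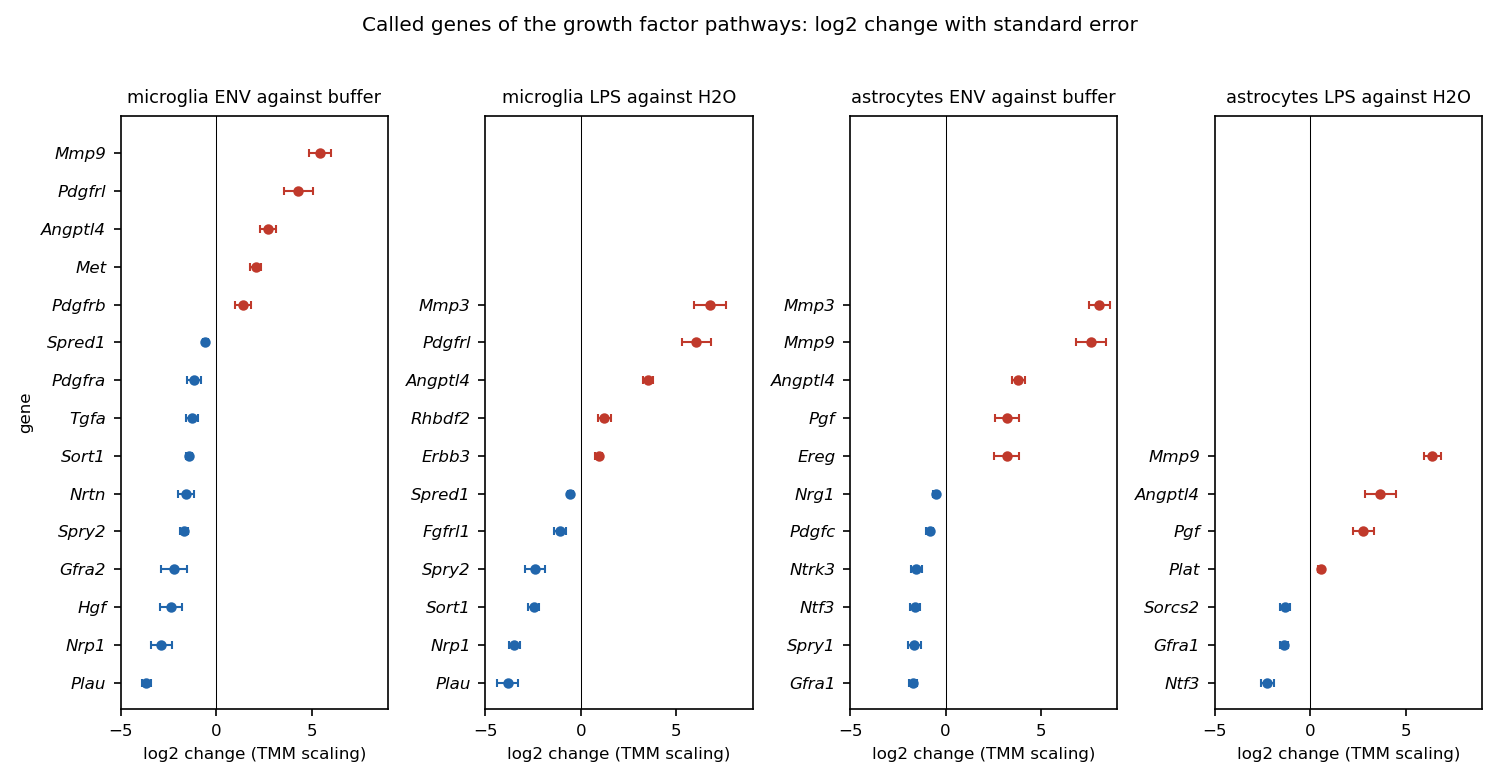
Log2 change ± SE of the called pathway genes named in the text, by comparison, with red for higher and blue for lower levels. Genes with at most 3 counts in a group are left out. Nrtn in ENV microglia and Mmp3, where shown, passed the filter on low counts only through the group where they were high. They had to differ, so their points are not tests. Nrp1, Sort1 and Plau fall in microglia under both stimuli, and Angptl4 rises in all 4 comparisons.

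The 2 genes whose log2 levels followed each member most closely over the 28 libraries are given as a description, since the libraries fall into 2 cell types that any gene differing between them would follow. For Vegfb they were Mgst3 and Fhod1 (Pearson r = 0.96), for Vegfa Cnnm1 and Shb (0.94), for Pdgfb Cd59 (0.91) and Pmp22 (0.88), for Pdgfa Irx3 and Speg (0.99), for Fgf2 Rarb and Tmem200a (0.99), for Hbegf Unc5b and Rin1 (0.97) and for Vegfc Col5a1 and Cfl2 (0.99), among 12718 genes. Bdnf and Gdnf lay under 1 CPM in the mean of every group and were not compared this way.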

How the data were processed

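The deposited tables gave gene counts for 28 RNA-seq libraries (VAHTS Universal kit with mRNA capture, per the labels' protocols); the submitters' processing notes name HISAT2, StringTie 1.3.3b and the build mRatBN7.2. The sources used here give neither annotation nor strand setting, so reads of overlapping genes on opposite strands cannot be told apart. Counts were tested with edgeR 4.0.16 (R 4.3.3, limma 3.58.1; TMM, filterByExpr, robust quasi-likelihood F test) within the 2 groups of a comparison, or within all groups of a difference of responses, with Benjamini-Hochberg adjustment over all genes tested. SEs are the log2 change divided by the square root of F, and CPM is counts per 1e+06 of the library total. Counting intervals cover counting error only. DESeq2 1.42.0, no filter, a replicate block, joint fits and left-out libraries were alternatives. Same-numbered libraries deviated together in all 4 stimulated comparisons (r 0.26 to 0.64), although the labels do not say what a number marks. In LPS and H2O astrocytes unlike numbers did so too, at r 0.40 and 0.53 between replicates 1 and 2 and 0.28 and 0.32 between 3 and 4. Across these 2 sets r was −0.56 to −0.34. The main fits were unpaired, and the replicate number entered as a block only in an alternative. No 2 libraries agreed within sampling noise. From each list up to 3 called genes with the widest log2 change per comparison are named, a few of which are not reported here, and for each member the 2 genes with the highest r of log2 CPM (prior count 2) among genes of at least 1 CPM in a group. The members and lists were chosen with earlier results of these data known. Scripts were tested on simulated data with 200 changed genes.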

Additional observations from a re-analysis of the deposited data

Results flagged for a closer look

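Within the groups of 4 astrocyte libraries, 36 combinations of member and group were examined for a library lying far from the other 3, and 2 were found, where chance gives about 1 in 20. Vegfa was at 47.9 CPM in ENV replicate 4, and the gap to the nearest library spanned 0.99 of the group's range. Fgf2 was at 34.0 CPM in LPS replicate 4, with a gap of 0.83 of the range.

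The responses of microglia and astrocytes to the same stimulus differed by a test of the difference itself for 3 members under ENV and 2 under LPS. Microglial minus astrocyte log2 changes were 1.97 for Vegfa, −2.29 for Vegfb and 2.42 for Fgf2 with ENV, and 3.29 for Vegfa and −2.52 for Vegfb with LPS (edgeR adjusted p = 0.0135, 2.87e-06, 3.87e-04, 0.00759 and 2.17e-04). The Vegfa difference joined a higher level in microglia with astrocyte changes of −0.35 and −0.37 that were not called. The Fgf2 difference rested on 3 counts in each buffer microglia library and 11 to 22 counts in the ENV microglia libraries.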

How the results depend on the processing

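Across all alternatives the 9 growth factors gave 1198 values on the same side of the threshold, 20 that lost a call, 28 that gained one and 0 called values that changed sign; the alternatives for pathway genes, run for genes already called and so unable to gain a call, kept 505 and lost 116, with 0 changes of sign. The cause of these shifts was not tested. The number of members called was 3 for ENV microglia in the joint fit, and for ENV astrocytes 2 with DESeq2, 3 with the replicate block and 2 without both replicates 4. In LPS astrocytes 1 member, Hbegf, was called in replicates 1 and 2 alone, a split made on its own level and so no test, and 5 had a different ENV response between cell types with DESeq2. Buffer and H2O microglia differed for 1 member with DESeq2, and for 1 without H2O and LPS replicates 3.

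Genes called over the whole table in the replicate block fit numbered 4348 for ENV astrocytes, 2611 for LPS astrocytes, 1 for the ENV minus LPS response of microglia, and 3314 and 3029 for the cell type differences under ENV and LPS. DESeq2 called 2049 for LPS astrocytes, 67 for ENV minus LPS in microglia, 2720 for the cell type difference under LPS and 679 between the microglial vehicles. LPS astrocytes gave 1736 in the joint fit and 2970 in replicates 1 and 2 alone, ENV minus LPS in microglia gave 8 without H2O and LPS replicates 3, and the microglial vehicles gave 1650 without them and 1 without a filter. The block changed no member call other than those given beside Pdgfb and Hbegf.

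Leaving out 1 library at a time gave 2466 to 5282 genes and 3 to 5 members in ENV microglia (3 members without buffer or ENV replicate 1 or 2). LPS microglia gave 1351 to 3986 genes and 1 to 2 members, where leaving out H2O replicates 1, 2 or 3 gave 1351, 1580 or 2343 genes and leaving out LPS replicate 2 gave 1744. ENV astrocytes gave 1487 to 2869 genes and 0 to 3 members (0 without buffer or ENV replicate 1, 2 or 3, 3 without either replicate 4), with 1487 genes without buffer replicate 3. LPS astrocytes gave 236 to 681 genes, the lowest without H2O replicate 3. ENV minus LPS in microglia gave 0 to 4 genes, and the microglial vehicles 0 to 1650 genes and 0 to 1 members, both highest without H2O replicate 3. For 3 DESeq2 values no adjusted p was given, and these are not counted. Microglial Bdnf, Gdnf and Vegfc did not pass the filter, and without it 0 of them were called (adjusted p = 0.174 to 0.995).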
